A study of Mus musculus with 2 samples.

Results

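Chromatin immunoprecipitation followed by sequencing maps where a protein sits along the genome, and a peak caller then turns stacks of reads into regions with a start and an end. Here the regions came from an antibody against the Myc tag in corneal epithelium of mice at postnatal day 7 (P7). The genotype is K14 DN-Clim, a transgene that drives a Myc-tagged dominant-negative Clim from the keratin 14 promoter, which is active in basal epithelial cells. Each of the 2 replicates, samples 1 and 2, gave its own list of regions in mm9 coordinates, called list 1 and list 2 below, and both belong to that 1 group. Whether the samples came from separate animals is not stated, and no input, untagged or wild-type library was analysed here. The epithelium had been released with dispase for 2 hours, and each precipitation used 24 µg of chromatin.

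The regions described are those found in both lists that were short in one list and longer in the other. The pairs were chosen by the widths of their regions: a region counted as narrow up to a width of 104 bp in list 1 and of 99 bp in list 2, and as wide above that, limits that were read from the same widths. A pair is a list 1 region and a list 2 region that overlap by at least 1 bp. Of the 20626 pairs on chromosomes 1 to 19 and X, 8316 were narrow in exactly one list. They comprised 5609 narrow-to-wide pairs, narrow in list 1 and wide in list 2, and 2707 wide-to-narrow pairs, wide in list 1 and narrow in list 2. The pairs that kept their class were 7505 narrow in both and 4805 wide in both. The changing pairs used 8298 distinct regions of list 1 and 8314 of list 2. A further 3 changing pairs lay on other chromosomes and were left out.

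Clim proteins, known as Ldb or Nli too, act as nuclear adaptors that dimerise and join LIM-homeodomain and LIM-only proteins to DNA-bound partners such as GATA and bHLH factors. The dominant-negative form keeps the LIM interaction and lacks dimerisation, so it occupies LIM partners without bridging them. Clim has no DNA-binding domain, and a region in such an experiment reports chromatin reached through other proteins. As background on the measure, a called region spans the positions where reads stand above the caller's limit. Its width therefore depends on fragment length, on depth and on the limit used, as well as on how far the protein extends along the DNA. The files hold no reads, so the depth of each list is unknown. The intervals given here cover only the counting error over regions, treat regions as independent although they cluster, and are therefore too narrow. With 1 list per replicate and 1 group, no difference could be tested over samples.

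Narrow-to-wide pairs made up 27.2% of all pairs (exact 95% interval 26.6 to 27.8%) and wide-to-narrow pairs 13.1% (12.7 to 13.6%), together 40.3%. These shares come from the rule that chose the pairs and are a description. By arithmetic, the excess of 2902 pairs in the first direction equals the difference between the 13114 pairs narrow in list 1 (63.6%) and the 10212 narrow in list 2 (49.5%). The product of those shares would place 6621 pairs in the narrow-to-wide class and 3719 in the wide-to-narrow class, so both observed counts lay below it. Among the pairs narrow in list 1, 42.8% were wide in list 2, and among those wide in list 1, 36.0% were narrow in list 2. Seen from list 2, 26.5% of the narrow and 53.9% of the wide pairs had the other class in list 1.

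The partners also differed in how often they existed at all. Of the 16046 narrow regions of list 1, 35.0% had a wide partner in list 2, 46.8% a narrow partner and 18.3% none. Of the 9497 wide regions of list 1, 28.1% had only narrow partners, 50.1% only wide partners and 21.6% none. List 2 was 1.67 times as long as list 1, and more of its regions stood alone. Of its 20196 narrow regions 13.4% had a wide partner in list 1, and of its 22342 wide regions 25.1% had only narrow partners.

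The limits cap narrow widths and set no upper bound on wide ones, so the contrast that follows is partly fixed in advance. The widths of the narrow-to-wide pairs varied little in list 1 and more in list 2. In list 1 they ran from 68 to 104 bp with a median of 77 bp, and in list 2 from 100 to 627 bp with a median of 135 bp. The wide-to-narrow pairs were larger where they were wide: up to 376 bp in list 1 with a median of 163 bp, and 53 to 99 bp in list 2 with a median of 66 bp. The median gain from the narrow to the wide region was 57 bp in narrow-to-wide pairs (quartiles 41 and 70 bp) and 93 bp in wide-to-narrow pairs (quartiles 64 and 114 bp). A wide region of at least 160 bp occurred in 18.7% of narrow-to-wide pairs and in 52.6% of wide-to-narrow pairs. Pairs wide in both lists reached that width in 47.8% of cases in list 1 and 35.3% in list 2, so a longer wide region in list 1 was not limited to the changing pairs.

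The narrow partners resembled narrow regions that stayed narrow. Pairs narrow in both lists had a median of 76 bp in list 1 and 65 bp in list 2, within 1 bp of the narrow members of either changing class. The wide partner was less uniform in width, which is again partly fixed by the limits.

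**Figure D1:**
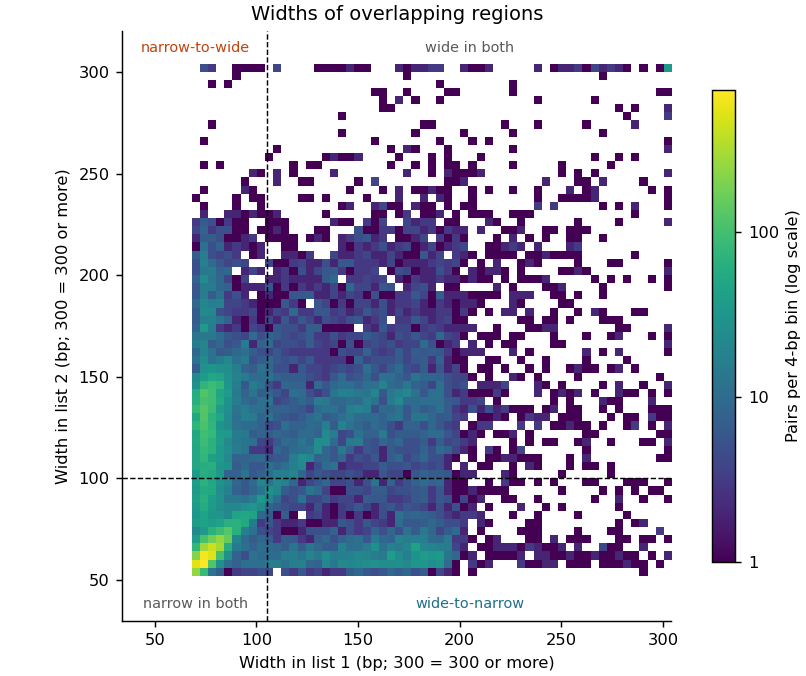
Width in list 1 (x axis, bp) against width in list 2 (y axis, bp) for the 20626 pairs, as pairs per 4-bp bin on a log colour scale. The dashed lines are the limits between narrow and wide, and widths of 300 bp or more share the last bin. The narrow-to-wide pairs form a vertical band at the narrowest list 1 widths. The wide-to-narrow pairs form a horizontal band at the narrowest list 2 widths, and a thin diagonal crosses the limits in that class.

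Few pairs changed class with a small difference in width, but more had at least 1 width close to its limit. A width difference of at most 20 bp was found in 190 narrow-to-wide pairs (3.39%) and in 123 wide-to-narrow pairs (4.54%). Both widths lay within 10 bp of their limits in 50 and in 107 pairs of the same classes. At least 1 of the widths lay that close in 1032 narrow-to-wide pairs (18.4%) and in 568 wide-to-narrow pairs (21.0%). The smallest steps show how the limits act: on chromosome 6 a list 1 region of 104 bp (35090613 to 35090716) met a list 2 region of 101 bp (35090603 to 35090703) and counted as narrow-to-wide. On chromosome 17 a list 1 region 1 bp over the limit (75565502 to 75565606) met a list 2 region of 99 bp (75565496 to 75565594) and counted as wide-to-narrow. Just inside the limit of list 1, the 401 pairs of 100 to 104 bp had a median list 1 score of 183, and 46.6% of their partners were narrow. Just outside it, the 336 pairs above the limit and up to 109 bp had a median score of 148, and 42.3% of their partners were narrow. In list 2 the 536 pairs of 95 to 99 bp had a median score of 88.0 and the 500 pairs of 100 to 104 bp one of 84.1, with narrow partners in 58.0% and 59.6%.

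In most pairs the wide region ended close to its narrow partner at one end and reached further at the other. In each pair the ends of the wide region were compared with those of the narrow one, and the end with the smaller distance was called the nearer end. At the nearer end the edges lay within 20 bp of each other in 80.4% of narrow-to-wide pairs (79.4 to 81.5%) and in 89.9% of wide-to-narrow pairs (88.7 to 91.0%). At the farther end the wide region reached a median of 58 bp beyond the narrow one in narrow-to-wide pairs (quartiles 44 and 69 bp) and 89 bp in wide-to-narrow pairs (quartiles 62 and 107 bp). A reach of over 20 bp on both sides was seen in 18.0% of narrow-to-wide and 7.06% of wide-to-narrow pairs. The nearer end is the closer one by definition, and both widths limit where a narrow region can lie inside a wide one. These shares are thus partly fixed in advance, and no chance value was computed. Restricted to the 4145 narrow-to-wide and 2418 wide-to-narrow pairs whose wide region was at least 42 bp wider, and so could reach that far on both sides, the shares were 24.4% and 7.90%.

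The farther end lay about equally often on either side. The wide region reached further towards higher coordinates in 50.6% of narrow-to-wide pairs (49.3 to 51.9%) and in 50.9% of wide-to-narrow pairs (49.0 to 52.8%), intervals that include 50%. The narrow region lay entirely inside the wide one in 60.6% and 63.6% of pairs of these classes. In the remaining pairs it protruded at one end at least. Protrusion at both ends requires a wide region narrower than its partner, found in 7 narrow-to-wide and 0 wide-to-narrow pairs.

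The distances at the nearer end had 2 local peaks, which were the same in both directions once expressed as the place of the list 2 edge relative to the list 1 edge. The edges fell on the same base in 537 narrow-to-wide pairs (9.57%) and in 350 wide-to-narrow pairs (12.9%). The list 2 edge lay 16 bp further inward in 401 narrow-to-wide pairs (7.15%) and in 232 wide-to-narrow pairs (8.57%). A distance of 17 bp inward held 2.00% and 2.44% of the narrow-to-wide and wide-to-narrow pairs. Around the same base the shares fell sharply inward and gradually outward. A distance of 1 bp inward held 3.05% and 4.17%, 1 bp outward 7.65% and 8.83%, 2 bp outward 6.17% and 6.50%, and 3 bp outward 4.12% and 5.06%. Distances of 14 to 16 bp inward held 16.5% of narrow-to-wide and 19.5% of wide-to-narrow pairs. In narrow-to-wide pairs this places the narrow list 1 region outside the wide list 2 region by that distance, and in wide-to-narrow pairs it places the narrow list 2 region inside. Edges within 20 bp at both ends were found in 155 narrow-to-wide and 163 wide-to-narrow pairs.

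**Figure D2:**
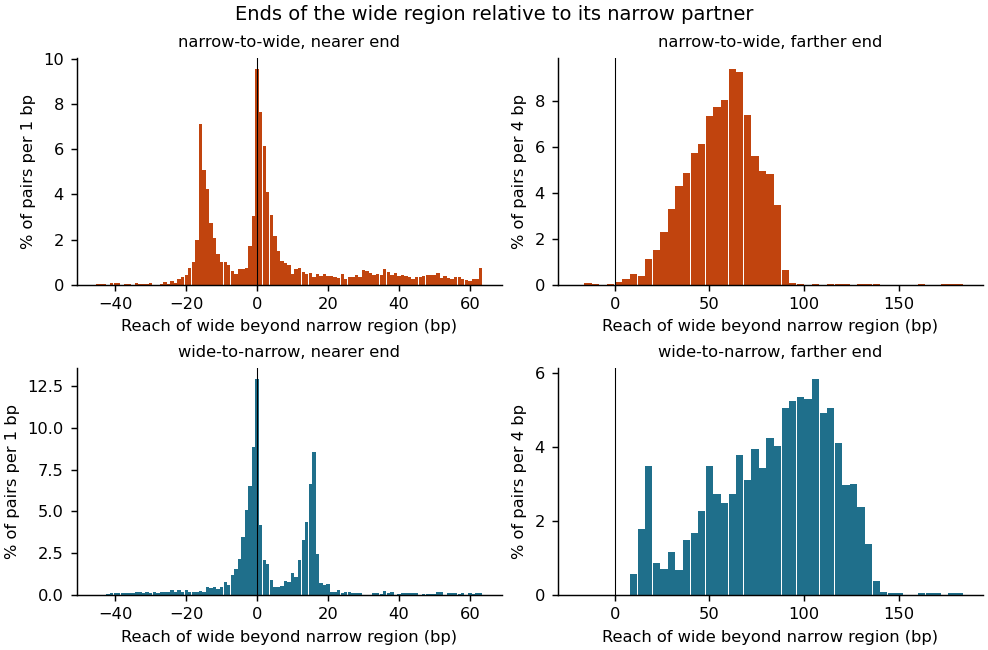
Reach of the wide region beyond its narrow partner in bp (x axis, negative where the narrow region protrudes) at the nearer end in 1-bp bars and at the farther end in 4-bp bars, as percent of the 5609 narrow-to-wide pairs (top) and the 2707 wide-to-narrow pairs (bottom). The nearer end has a peak at 0 in both rows, with 9.57% and 12.9% of the pairs, and another at 16 bp on opposite sides of 0, while the farther end spreads around medians of 58 and 89 bp.

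A wide region rarely stood for several narrow ones. Among the changing pairs, 18 wide regions of list 1 covered 2 narrow regions of list 2 each, separated by 9 to 89 bp with a median of 52.5 bp. Only 2 wide regions of list 2 covered 2 narrow regions of list 1 each, separated by 117 and 127 bp. A further 21 wide regions of list 1 had both a narrow and a wide partner.

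Narrow regions had similar median scores whatever the class of their partner, while wide regions with a narrow partner scored lower than wide regions with a wide partner in both lists. The score is the authors' value for each region, of unstated meaning, and serves to rank regions within a list. In list 1 the median score was 199.98 in narrow-to-wide pairs (order-statistic 95% interval 197.7 to 202.4), and pairs narrow in both lists had 197.7 (195.2 to 198.3). In list 1 wide-to-narrow pairs had a median of 109.7 (108.0 to 112.2) and pairs wide in both lists one of 122.0 (119.9 to 123.7). In list 2 the order was turned: wide-to-narrow pairs had a median of 105.6 (103.1 to 107.6), close to the 108.0 (106.2 to 109.8) of pairs narrow in both lists. Narrow-to-wide pairs had a median of 81.7 (79.9 to 83.2) in list 2, below the 92.8 (92.3 to 93.4) of pairs wide in both.

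**Figure D3:**
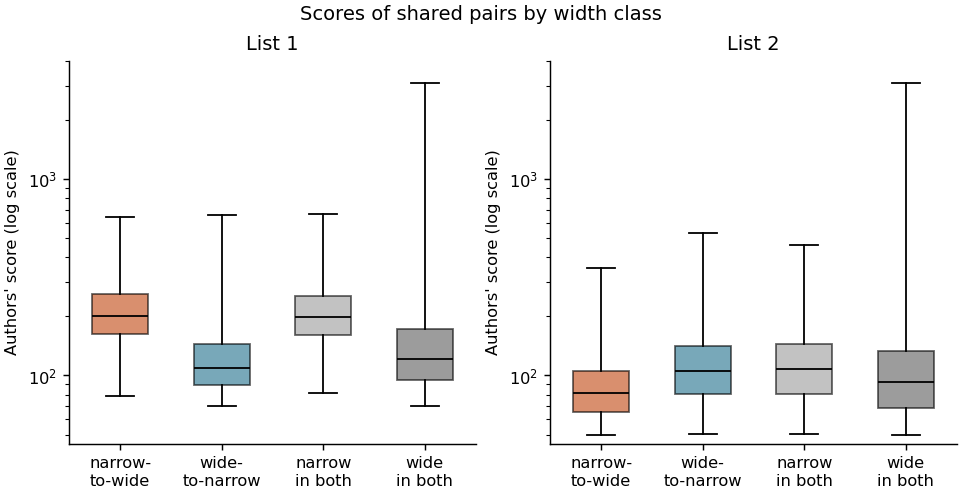
The authors' score (y axis, log scale) of the 4 width classes in list 1 (left) and list 2 (right), with boxes for quartiles, lines for medians and whiskers for the lowest and highest score. The narrow-to-wide box sits level with the pairs narrow in both lists in list 1 and is the lowest of the 4 in list 2, and the wide-to-narrow box shows the opposite.

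Percentiles of the score within each list come from lists of different length and lowest score, so they describe each list and show no change between them. The list 1 percentile minus the list 2 percentile of a pair had a median of 14.5 points in narrow-to-wide pairs (13.5 to 15.2), 3.46 points when list 2 regions scoring under the minimum of list 1 were left out, and 5.38 points in the upper 50% of each list. In wide-to-narrow pairs the median was -42.7 points (-44.2 to -40.9), -50.5 points with those list 2 regions left out and -11.2 points in the upper 50% of each list. Its size thus depended strongly on which regions entered. In pairs that kept their class the median was -6.03 points where narrow and -24.3 points where wide. List 2 extends to a score of 50, and list 1 ends at 70.03. Among narrow-to-wide pairs 34.4% had a list 2 score under the lowest list 1 score, among wide-to-narrow pairs 16.4%, and among pairs narrow or wide in both lists 15.9% and 27.6%, a count that assumes one scale for both lists.

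Across regions, the scores of changing pairs were weakly related between the lists. Spearman's rho was 0.259 over narrow-to-wide pairs and 0.170 over wide-to-narrow pairs, between the 0.078 of pairs narrow in both lists and the 0.473 of pairs wide in both. In the upper 50% of each list it was 0.250 over narrow-to-wide pairs and 0.0292 over wide-to-narrow pairs (359 pairs), with an interval from -0.0746 to 0.132. With widths at least 10 bp from the limits it was 0.237 and 0.132. The correlations are descriptions without a test.

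Whether a narrow region changed class bore little relation to its score, whereas wide regions with the highest scores changed least often in both lists. The pairs were divided into 10 score classes of equal size in each list. Among pairs narrow in list 1, the share that was wide in list 2 stayed between 40.0% and 45.1% over all 10 classes, of which the lowest held only 41 such pairs. Among pairs narrow in list 2, the share that was wide in list 1 stayed between 24.6% and 29.0%. Among pairs wide in list 1, by contrast, the share that was narrow in list 2 was 41.5% in the lowest score class and 18.8% in the highest. Among pairs wide in list 2, the share that was narrow in list 1 was 58.5% in the lowest class and 61.0% in the fourth. It was still 53.5% in the eighth class, then 39.5% in the ninth and 20.5% in the highest.

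**Figure D4:**
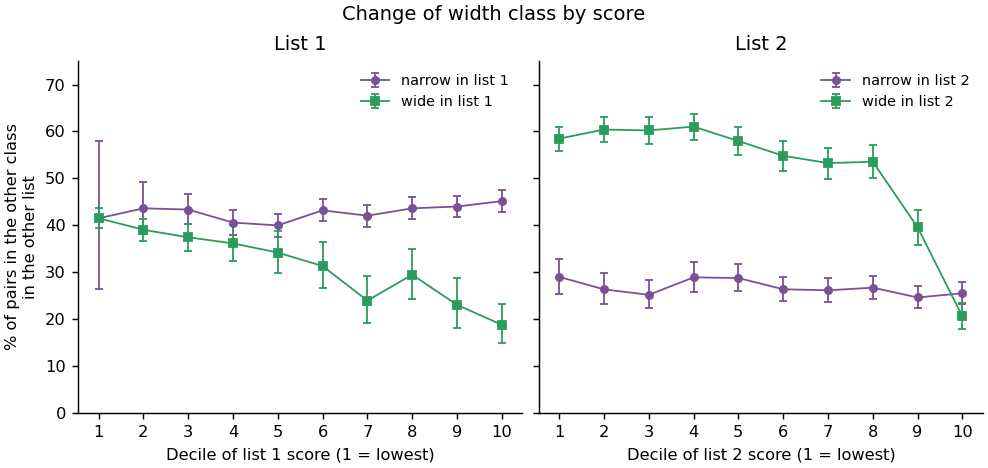
Percent of pairs with the other width class in the other list (y axis) by decile of the score in list 1 (left) and list 2 (right), for pairs narrow (circles) and wide (squares) in that list, with exact 95% intervals. The circles stay between 40.0 and 45.1% in list 1 and between 24.6 and 29.0% in list 2, and the squares end at 18.8 and 20.5% in the highest decile.

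The relation was also examined among wide regions of like width. Among list 1 regions of 140 to 179 bp, with a median width of 160 bp in the upper and in the lower 50% by score, 34.6% and 44.4% were narrow in list 2, a difference of -9.79 points (Newcombe 95% interval -13.2 to -6.31). Among list 2 regions of 120 to 149 bp, 58.6% in the upper and 62.5% in the lower 50% by score were narrow in list 1, a difference of -3.91 points (-6.73 to -1.08). These width ranges were chosen after the widths had been seen. The share of changing pairs among the highest scores depended on the list and on how many regions were taken. In the highest score class of list 1, 834 of 2063 pairs changed (40.4%, 38.3 to 42.6%), 37.1% narrow-to-wide and 3.34% wide-to-narrow, against 40.3% of all pairs. In the highest class of list 2, 486 of 2063 pairs changed (23.6%, 21.7 to 25.5%), 7.95% narrow-to-wide and 15.6% wide-to-narrow. Of the 100 highest-scoring shared regions of list 1, 15 were narrow-to-wide, 7 wide-to-narrow, 13 narrow in both and 65 wide in both. Of the 100 highest of list 2, 1 was narrow-to-wide, 5 were wide-to-narrow, 14 narrow in both and 80 wide in both.

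The highest-ranking changing pairs had, where narrow, widths near the upper end of the narrow class. The first narrow-to-wide pair by mean score percentile lay on chromosome 5, with a list 1 region of 96 bp (27753429 to 27753524, score 624.3) and a list 2 region of 137 bp (27753379 to 27753515, score 278.6). The next lay on chromosome 15, with 103 bp in list 1 (97764220 to 97764322, score 521.2) and 171 bp in list 2 (97764199 to 97764369, score 317.4). On chromosome 1 the pair at 158274194 to 158274296 in list 1 was 103 bp wide there and 202 bp wide in list 2. A second chromosome 1 pair began at base 137051616 in both lists and was 103 bp wide in list 1 and 163 bp in list 2. The fifth pair, on chromosome 8 from 41499659 to 41499756 in list 1, was 98 bp wide there and 119 bp in list 2. All 5 were thus at least 96 bp wide in the list in which they counted as narrow, against a median of 77 bp over the class.

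The highest-ranking wide-to-narrow pair lay on chromosome 19, with a list 1 region of 135 bp (25055405 to 25055539, score 505.0) and a list 2 region of 99 bp (25055420 to 25055518, score 531.1, the highest list 2 score of the class). The next 2 lay on chromosome 6. One was 111 bp wide in list 1 (72967850 to 72967960, score 542.5) and 96 bp in list 2 (72967849 to 72967944, score 285.9). The other ended at base 47007018 in both lists and was 112 bp wide in list 1 and 99 bp in list 2. The remaining pairs lay on chromosome 14 from 46969947 to 46970063 in list 1 (117 bp, and 98 bp in list 2) and on chromosome 9 from 78921149 to 78921258 in list 1 (110 bp, and 97 bp in list 2). The width difference was 36 bp in the chromosome 19 pair and 13 to 19 bp in the others. The median difference over the class was 93 bp, so these pairs lay near the limits in both lists or differed little in width.

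The largest changes of width showed a short region within a much longer one. On chromosome 11 a list 1 region of 100 bp (88579585 to 88579684, score 118.6) lay inside a list 2 region of 627 bp (88579146 to 88579772, score 313), which reached 439 bp further on the left and 88 bp on the right. On chromosome 16 a list 1 region of 75 bp (78376258 to 78376332) lay inside a list 2 region of 492 bp (78376231 to 78376722). The third, on chromosome 15, joined 75 bp in list 1 (36675894 to 36675968) to 423 bp in list 2 (36675603 to 36676025) and was one of those with several partners. In the other direction, list 1 regions of 376 bp on chromosome 9 (44286750 to 44287125) and 360 bp on chromosome 12 (108996924 to 108997283) covered list 2 regions of 71 and 60 bp, and both had several partners. On chromosome 18 a list 1 region of 308 bp (65587029 to 65587336) covered a list 2 region of 63 bp. The genes at these positions are not named, because the gene table at hand uses another build than the lists.

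Chromosome location was not used to choose the pairs, and X stood apart from the autosomes. On X, 180 of the 595 pairs changed class (30.3%, 26.6 to 34.1%), and on the autosomes 8136 of 20031 (40.6%, 39.9 to 41.3%). The difference was -10.4 points (Newcombe 95% interval -14.0 to -6.50), and all 19 autosomes, which ranged from 37.1% on chromosome 17 to 43.1% on chromosome 2 (SD 1.55 points), lay above X. As shares of all pairs, narrow-to-wide pairs were 16.8% of the X pairs and 27.5% of the autosomal pairs, a difference of -10.7 points (-13.6 to -7.42), while wide-to-narrow pairs were 13.4% and 13.1%, a difference of 0.331 points (-2.22 to 3.34). Of the changing pairs, 55.6% on X and 67.7% on the autosomes were narrow-to-wide.

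**Figure D5:**
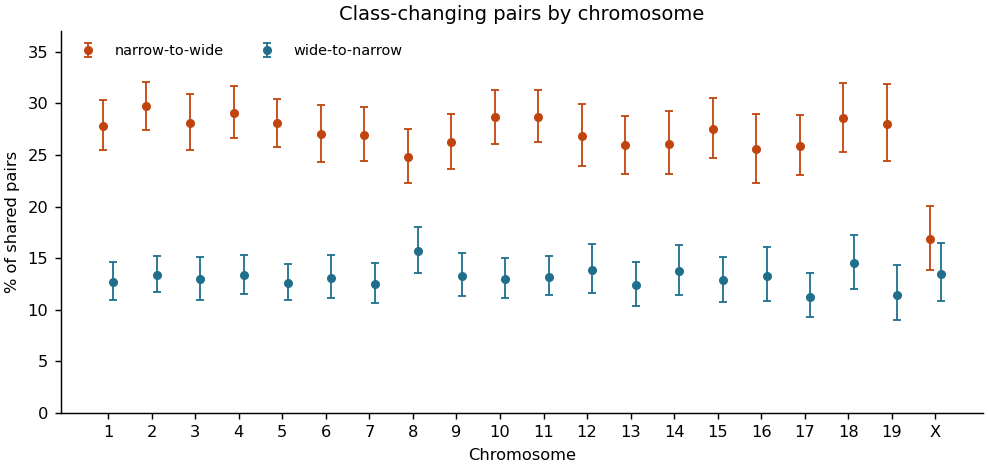
Narrow-to-wide and wide-to-narrow pairs as percent of the shared pairs of each chromosome (y axis), with exact 95% intervals. The narrow-to-wide share is between 24.8 and 29.7% on the autosomes and 16.8% on X, and the wide-to-narrow share on X, 13.4%, lies within the autosomal range of 11.3 to 15.7%.

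The regions on X were more often narrow than those on the autosomes in both lists, by a larger margin in list 2. Over whole lists, 66.8% of the X regions and 46.9% of the autosomal regions of list 2 were narrow, and in list 1 68.3% and 62.7%. The median X region was 70 bp wide in list 2 and the median autosomal region 106 bp, and in list 1 these were 79 and 83 bp. Among pairs narrow in list 1, 23.6% on X and 43.4% on the autosomes were wide in list 2, a difference of -19.8 points (-23.7 to -15.5). Among pairs wide in list 1, 46.8% on X (80 of 171 pairs) and 35.8% on the autosomes were narrow in list 2, a difference of 10.998 points (3.59 to 18.5). In both list 1 classes the X pairs were thus more often narrow in list 2, which lowers one direction and raises the other. Of all pairs, 404 of 595 on X and 9808 of 20031 on the autosomes were narrow in list 2. Among pairs narrow in list 2, 19.8% on X and 26.8% on the autosomes were wide in list 1, a difference of -6.98 points (-10.7 to -2.73). Among pairs wide in list 2, the share narrow in list 1 was 52.4% on X and 53.9% on the autosomes, a difference of -1.53 points (-8.66 to 5.50). Median scores of whole lists were higher on X than on the autosomes, 176.3 and 166.7 in list 1 and 94.6 and 81.9 in list 2. The part of the scores in the width classes on X was not tested.

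Among the autosomes the direction varied little. The narrow-to-wide share of changing pairs ran from 61.3% on chromosome 8 (56.6 to 65.8%) to 71.0% on chromosome 19, with an SD of 2.10 points over 19 chromosomes. Chromosome 8 had both the lowest autosomal share of narrow-to-wide pairs, 24.8%, and the highest of wide-to-narrow pairs, 15.7% (13.6 to 18.0%), whose interval lies just above the 13.1% of all autosomes. Chromosome 8 was singled out from 19 autosomes after the values were seen.

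The number of shared regions per megabase differed little between the classes. The fixed 1 Mb window in which a pair fell held a median of 12 shared regions for narrow-to-wide and wide-to-narrow pairs. The median was 11 and 12 for pairs narrow and wide in both lists, and each count includes the pair's own region. On the autosomes the narrow-to-wide share was 26.3% in windows with 1 to 5 shared regions, 27.3% with 6 to 10, 27.4% with 11 to 15, 28.0% with 16 to 20 and 29.1% with over 20. The share in windows with over 20 regions minus that in windows with 1 to 5 was 2.81 points (Newcombe 95% interval 0.345 to 5.29). The wide-to-narrow share was 13.6, 12.9, 13.2, 13.4 and 12.5% in the same order of windows, and its difference was -1.05 points (-2.90 to 0.815). Of the 2507 windows with a pair, 2225 held a changing pair and 1287 held both directions. Windows were ranked by the raw count of changing pairs, without regard to how many pairs they held. Over all pairs, 40.3% changed class. The window with most changing pairs was on chromosome 11 from 117000001 to 118000000, with 14 narrow-to-wide and 8 wide-to-narrow among 43 pairs. It was followed by windows on chromosome 2 from 168000001 to 169000000 (9 and 5 of 27 pairs) and on chromosome 5 from 147000001 to 148000000 (11 and 3 of 31 pairs). The chromosome 2 and chromosome 5 windows held equal counts of changing pairs. That count was shared by 4 windows, and ties were taken in genome order.

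At shorter range the directions differed. Another shared region lay within 5 kb of 849 narrow-to-wide pairs (15.1%, 14.2 to 16.1%) and of 313 wide-to-narrow pairs (11.6%, 10.4 to 12.8%), a difference of 3.57 points (Newcombe 95% interval 2.02 to 5.07). The share was higher for narrow-to-wide pairs on 18 of the 19 autosomes. Pairs narrow or wide in both lists lay between, at 13.6% and 13.1%. Within 10 kb the shares were 25.7% and 21.1% for the changing directions, and within 1 kb 4.30% and 3.18%, limits added after seeing the data. The median distance to the nearest shared region was 28.0 kb (26.5 to 29.3 kb) for narrow-to-wide and 30.7 kb (28.9 to 32.5 kb) for wide-to-narrow pairs. When each list was cut to its upper 50% by score, the difference within 5 kb was -0.763 points (-3.52 to 1.15), an interval that includes 0, with fewer regions in reach. Pairs close to each other count for each other in these shares, so the intervals are too narrow here in particular.

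Neighbouring pairs shared their direction about as often as all pairs, within the intervals. The nearest shared region was narrow-to-wide for 27.7% of narrow-to-wide pairs (26.5 to 28.9%), and for 27.7% of all pairs. It was wide-to-narrow for 12.6% of wide-to-narrow pairs (11.4 to 13.9%), and for 12.8% of all pairs. Where the neighbour lay within 5 kb, it was of the same direction for 27.3% of narrow-to-wide pairs (24.4 to 30.5%), against 30.5% narrow-to-wide neighbours over all pairs, and for 7.99% of wide-to-narrow pairs (5.24 to 11.6%), against 10.8% over all pairs. The directions also held similar shares at both ends of the chromosomes. The last 10% of the spanned length held 14.4% of narrow-to-wide and 13.0% of wide-to-narrow pairs, and the first 10% held 7.51% and 7.57%, with overlapping intervals in both cases.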

How the data were processed

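The authors deposited 1 list of regions per replicate, with chromosome, start, end, name and a score. The score is an undefined value per region that the authors deposited, used here for ranks within a list. The submitters' processing notes name Bowtie 0.12.7, bedtools 2.11.2 and mm9, and each region's name starts with MACS. For the caller, neither its version nor its limits nor a control is given in the sources used here. Regions under 105 bp in list 1 and under 100 bp in list 2 were called narrow. Per the labels' protocols, 2 lanes of 50-cycle single-end reads were combined after alignment, and libraries were amplified before size selection. Read counts are not part of the lists, so no count test was run.

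Overlapping pairs were found with Python 3.11.15, numpy 2.4.6, pandas 2.3.3 and scipy 1.17.1, and bedtools 2.31.1 gave the same 20626. The code was tested on simulated data, in which all 4000 planted pairs were recovered with their class. Shares carry exact (Clopper-Pearson) 95% intervals, medians order-statistic intervals and differences of shares Newcombe intervals. Windows and distances used the merged extent of overlapping regions, and a pair in which one region had several partners was counted once per partner. Coordinates count from 1. The pairs and measures were chosen with earlier results of these data known. The named regions were, in each direction, the 5 pairs with the highest mean score percentile, the 3 with the largest and the 1 with the smallest width difference, and the 3 windows with most changing pairs. Location relative to genes and sequences were not analysed here, because no annotation or sequence in mm9 was used. Alternatives were other width limits, stricter overlap, pairs with 1 partner each, score limits, autosomes alone and another window.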

Additional observations from a re-analysis of the deposited data

How the results depend on the processing

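No paired analysis was possible because there was 1 group of 2 replicates, and leaving out a replicate was not possible because a pair needs both lists. Limiting list 2 to scores at or above the lowest list 1 score left 3680 narrow-to-wide pairs, and using the upper 50% of each list by score left 2166 narrow-to-wide and 359 wide-to-narrow pairs, in part by construction, since fewer regions enter. The narrow-to-wide share of changing pairs, 67.4% as reported, was 85.8% in the upper 50%, 61.9% with the list 2 limit, 65.1% with a limit of 100 bp in both lists, 64.6% with the list 1 limit in both, and 68.5% and 65.5% with limits 10 bp lower and higher, the last 2 chosen after seeing the data. The percentile difference between list 1 and list 2 of narrow-to-wide pairs, 14.5 points, was 5.38 in the upper 50%, 3.46 with the list 2 limit, 16.2 with widths at least 10 bp from the limits and 13.1 with limits 10 bp higher. That of wide-to-narrow pairs, -42.7 points, was -11.2 in the upper 50%, -50.5 with the list 2 limit and -46.2 away from the limits. Nearer ends within 20 bp were found in 78.0% of narrow-to-wide pairs away from the limits and likewise with limits 10 bp higher, in 82.7% in the upper 50% and in 82.0% with limits 10 bp lower. For wide-to-narrow pairs the share was 91.9% in the upper 50%, and 92.5% and 87.2% with limits 10 bp lower and higher. The difference between the directions within 5 kb of a shared region turned to -0.763 points in the upper 50%, and the cause was not tested. The lower share of changing pairs on X stayed within its interval under the alternatives run for it. Alternatives for the location relative to genes were not run. Depth is unknown for both lists.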
